A study of Mus musculus with 6 samples.

Results

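The genes of the hypoxia response and of glycolysis were followed in MC38 tumors treated with Mn-N/C or with vehicle. Mn-N/C is a nanozyme, a particle with enzyme-like activity, that carries manganese as isolated atoms on nitrogen-doped carbon. A list of 37 gene names was matched by symbol to the deposited expression table and found 38 of its 21958 rows, since Aldoa stands on 2 rows with different gene identifiers. The rows were split by role into 4 oxygen-sensing genes, 14 targets of hypoxia-inducible factor (HIF) outside glycolysis, 3 transporters of glucose or lactate, and 17 rows of glycolytic enzymes.

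MC38, a mouse colon carcinoma cell line, was grown under the skin of the right flank of male wild-type C57BL/6J mice aged 6 to 8 weeks. In the treated group (3 libraries) the tumor was injected every 3 days with 50 µL holding Mn-N/C at a dose of 70 mg/kg, from a volume of 60 mm³ on. The vehicle group (3 libraries) received 50 µL of saline. The general end point of the tumor model was a volume of 800 to 1000 mm³. The volume and day at which the sequenced tumors were collected are not stated for either group. Any part of tumor size in the hypoxia values was therefore not tested. The tumors were snap-frozen, and RNA of the whole tissue was extracted with Trizol and sequenced. Whether the 3 libraries of a group stand for 3 separate animals is not stated, and the p-values therefore reflect variation among these samples alone. That variation exceeded counting error: for pairs of libraries within a group, chi-square divided by its degrees of freedom was 6.31 to 25.7. Sums of muscle markers, given below, also differed between libraries of a group. Whether the libraries come from separate animals or from pieces of the same tumor was not tested.

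Cells sense oxygen through prolyl hydroxylases, which mark the alpha subunit of HIF for destruction by the von Hippel-Lindau ubiquitin ligase while oxygen is present. When oxygen falls, HIF-1 and HIF-2 bind a short DNA core in their target genes. Between them they raise the transcription of angiogenic, mitophagy and pH-regulating genes and of most glycolytic enzymes. Tumor pieces are known to differ in oxygen supply, and glycolytic enzymes are also abundant in proliferating tumor cells for reasons other than hypoxia.

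To look for this core in genes the results turn on, 4 promoter windows from RefSeq on GRCm38.p6 are printed below. Each runs from 250 bases before to 50 after the transcription start, the most upstream one where RefSeq gives several. Capitals mark every ACGTG or GCGTG on either strand, so that CACGT and CACGC on the printed strand also count and a CACGTG counts on both strands. Ddit4 and Vegfa are shown for the lowest p among the HIF targets, Slc16a3 for the lowest p among the transporters, and Ldha for the largest number of matches.
Ddit4, chr10:59951721-59952020, minus strand: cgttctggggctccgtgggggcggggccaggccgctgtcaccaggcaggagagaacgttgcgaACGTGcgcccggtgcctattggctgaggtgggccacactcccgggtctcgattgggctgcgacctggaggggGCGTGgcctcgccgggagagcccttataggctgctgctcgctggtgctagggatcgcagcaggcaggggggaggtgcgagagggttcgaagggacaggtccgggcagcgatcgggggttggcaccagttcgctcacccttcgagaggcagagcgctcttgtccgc
Vegfa, chr17:46032328-46032627, minus strand: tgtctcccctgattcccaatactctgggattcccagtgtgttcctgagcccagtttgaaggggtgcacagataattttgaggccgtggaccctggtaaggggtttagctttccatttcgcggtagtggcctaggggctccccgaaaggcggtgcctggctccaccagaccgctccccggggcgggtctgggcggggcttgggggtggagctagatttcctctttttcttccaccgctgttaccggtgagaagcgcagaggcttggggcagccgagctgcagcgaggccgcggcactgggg
Slc16a3, chr11:120948817-120949116, plus strand: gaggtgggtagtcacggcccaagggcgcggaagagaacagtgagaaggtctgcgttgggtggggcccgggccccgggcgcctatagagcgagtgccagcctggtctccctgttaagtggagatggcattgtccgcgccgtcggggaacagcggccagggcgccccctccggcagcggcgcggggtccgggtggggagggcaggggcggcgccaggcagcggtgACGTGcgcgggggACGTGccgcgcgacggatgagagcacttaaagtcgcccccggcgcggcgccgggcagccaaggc
Ldha, chr7:46845554-46845853, plus strand: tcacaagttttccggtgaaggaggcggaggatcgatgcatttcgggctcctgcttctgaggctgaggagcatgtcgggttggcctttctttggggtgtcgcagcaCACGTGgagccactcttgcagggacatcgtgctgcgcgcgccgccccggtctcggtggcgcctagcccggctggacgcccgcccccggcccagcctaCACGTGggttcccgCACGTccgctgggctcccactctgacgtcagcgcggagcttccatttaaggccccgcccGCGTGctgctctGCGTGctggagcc
The Ddit4 and Slc16a3 windows hold 2 matches each and the Ldha window holds 7, including 2 copies of CACGTG. This Vegfa window holds 0, and the other Vegfa start in RefSeq has 2. Of the 37 names, 33 matched a RefSeq entry with 47 windows, and 37 of those windows (78.7%) held a match, against 60.8% of the windows of all tested genes and 43.8% of all windows. A match stood in 20 of 27 windows of glycolytic enzymes and in 12 of 15 windows of HIF targets outside glycolysis. Such a match is a description of the letters and not a binding site. Windows of Bnip3l, Epas1, Ndrg1 and Slc2a3 were not analysed here.

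The libraries held 14988588 to 18961134 counts. A count of 0 would allow 3 counts, or 0.158 to 0.200 CPM (counts scaled to a common library size), as counting error only. All 38 rows passed the filter on low counts, as did 12800 genes in all. The fold changes of these 12800 genes, which are not independent, were related to GC content (Spearman rho 0.49) and to gene length (rho -0.26). Epithelial markers that the label of colon cancer cells would lead one to look for were at or close to 0 in every library (Krt8, Krt18, Krt19, Epcam and Cldn7 at 0 to 0.956 CPM), while Cdh1 stood at 18.1 to 39.5 CPM. Each value is a mean over all cells of a piece, so fewer cells of a type and less RNA per cell cannot be told apart.

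None of the 38 rows passed edgeR's quasi-likelihood test after Benjamini-Hochberg adjustment (threshold 0.05), and neither did any of the 12800 genes tested (0.0%). In the mean, 19 rows were higher in Mn-N/C and 19 lower. The 2 directions were unevenly spread over the roles: 14 of 17 glycolytic rows had a higher mean in Mn-N/C, whereas 11 of 14 HIF targets outside glycolysis had a lower mean. The median log2 fold change (Mn-N/C over vehicle) was 0.11 for the glycolytic rows and -0.21 for the HIF targets, beside 0.00 for all tested genes, of which 50.2% had a higher mean. Neither median kept its size in every setting. That of the HIF targets was -0.05 without Mn-N/C replicate 2, -0.36 without Mn-N/C replicate 1 and -0.12 with the GC trend removed, and that of the glycolytic rows was 0.01 without Mn-N/C replicate 1, 0.18 without Mn-N/C replicate 2, 0.22 without vehicle replicate 2, 0.02 without vehicle replicate 3 and 0.04 with the GC trend removed.

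At an unadjusted p under 0.05, 1 row was higher (Slc16a3), where 9.82% of all tested genes were higher, and 2 rows were lower (Ddit4 and Vegfa), where 11.1% were lower. The 3 libraries of each group did not overlap for 2 rows with higher values in Mn-N/C (Slc16a3 and Pfkm), beside 14.2% of all genes, and for 3 with lower values (Ddit4, Vegfa and Bnip3l), beside 12.1%. Over all 38 rows, these shares lie below those of all genes. The lower rows were all among the 14 HIF targets outside glycolysis. There, 2 at that threshold and 3 without overlap are larger shares than those of all genes, on few rows. In that role 0 rows were higher by either measure. DESeq2 called 2 rows, Ddit4 and Vegfa, both lower, beside 8.91% of the genes it adjusted. Several members with low counts, such as Ankrd37 and Adm, received no adjusted p from DESeq2 and stand outside that comparison.

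**Figure D1:**
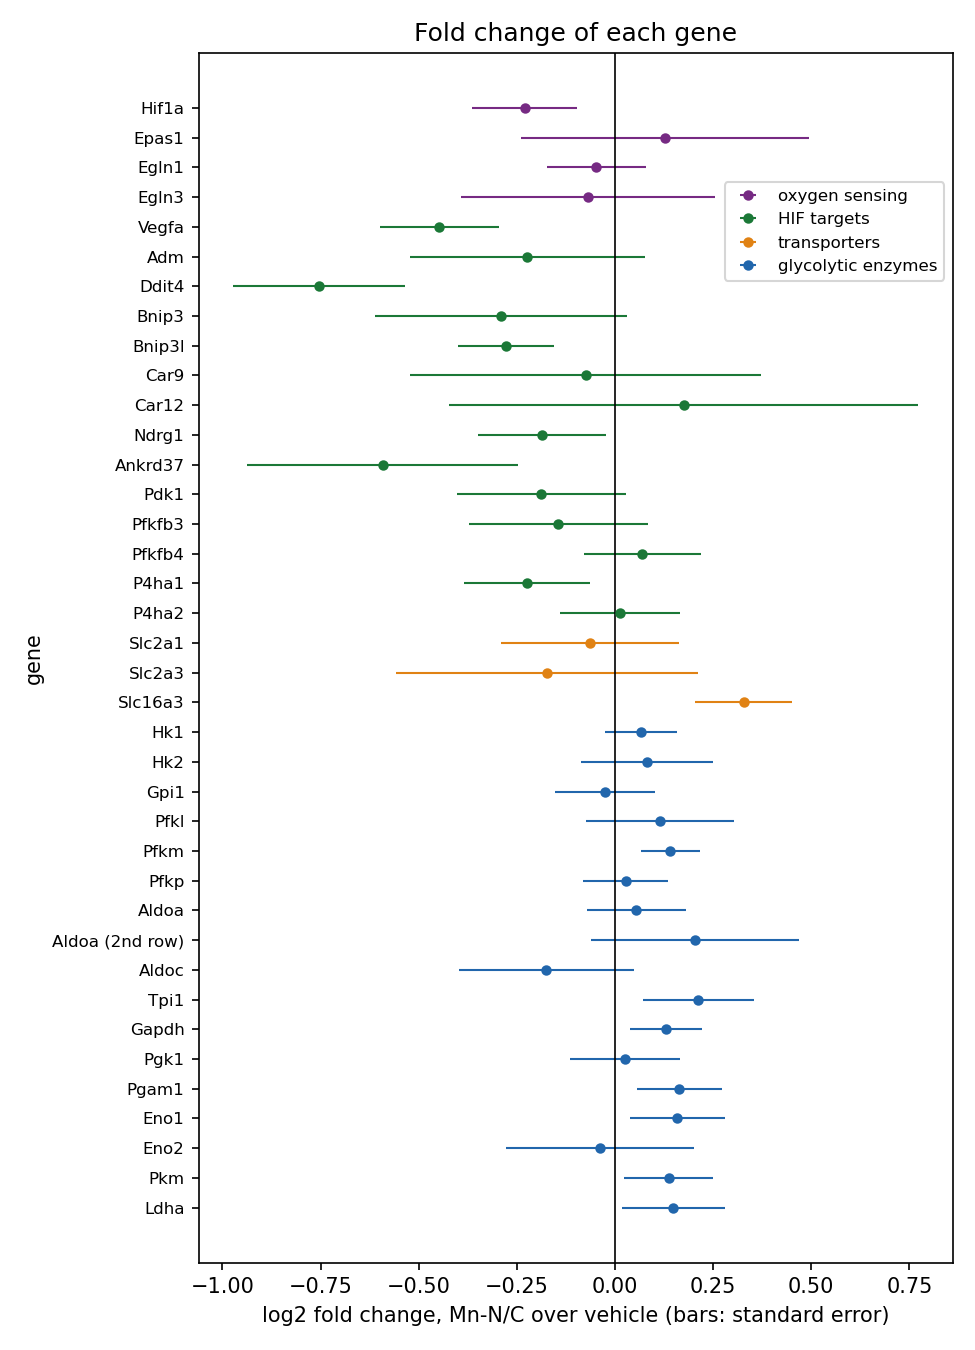
Log2 fold change of each row, Mn-N/C over vehicle (horizontal axis, points; bars are standard errors, 3 libraries per group), colored by role. Ddit4 lies farthest to the left at -0.75, and the glycolytic enzymes lie between -0.17 and 0.21.

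The oxygen-sensing genes did not differ beyond the spread between libraries. Hif1a, the oxygen-regulated subunit of HIF-1, had 132, 173 and 144 CPM in the Mn-N/C libraries, against 168, 154 and 206 CPM in the vehicle libraries. The groups overlapped, with the highest value in vehicle replicate 3. The log2 fold change was -0.23 ± 0.13 (SE) with an adjusted p of 0.346 (edgeR), and it was 0.06 with the GC trend removed.

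Epas1, which encodes the alpha subunit of HIF-2 and is abundant in endothelial cells, had 20.7, 44.7 and 21.2 CPM in Mn-N/C, against 39.7, 20.1 and 19.4 CPM in vehicle. Mn-N/C replicate 2 and vehicle replicate 1 stood apart at about the same level, and the other 4 libraries lay close together. Those same libraries had the highest sums of 12 endothelial markers, 288 CPM in Mn-N/C replicate 2 and 273 CPM in vehicle replicate 1. The remaining libraries summed to 163 to 199 CPM in Mn-N/C and 181 to 225 CPM in vehicle, and the part of endothelial cells in the Epas1 values was not tested. Its log2 fold change was 0.13 ± 0.37 (SE).

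The prolyl hydroxylases Egln1 and Egln3 are themselves oxygen-dependent, and Egln3 is also a strong HIF target. Egln1 (PHD2) had 146, 100 and 125 CPM in Mn-N/C, against 129, 132 and 123 CPM in vehicle. For Egln3 (PHD3) the values were 73.1, 26.4 and 46.5 CPM in Mn-N/C and 45.9, 64.1 and 43.0 CPM in vehicle. In both genes Mn-N/C replicate 1 was the highest of all libraries and Mn-N/C replicate 2 the lowest, so the vehicle values lay inside the Mn-N/C range. Log2 fold changes were -0.05 ± 0.13 and -0.07 ± 0.32 (SE).

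Among the HIF targets outside glycolysis, the stress gene Ddit4 had the lowest p. It encodes REDD1, an inhibitor of mTORC1 that is induced by hypoxia and by other stresses. Ddit4 (ENSMUSG00000020108, at 59785491 to 59787656 on chromosome 10 in the file) had 103, 51.3 and 73.4 CPM in Mn-N/C, against 132, 114 and 138 CPM in vehicle. All 3 Mn-N/C values lay below all 3 vehicle values. The mean was 76.0 ± 26.1 CPM in Mn-N/C and 128 ± 12.1 CPM in vehicle (SD, n = 3 each). The log2 fold change was -0.75 ± 0.22 (SE), with an adjusted p of 0.182 by edgeR's quasi-likelihood test. Across the alternatives the adjusted p ran from 0.0164 to 0.452, and the gene was lower in 16 of 16. It was called by DESeq2 (adjusted p 0.0164) and by edgeR with the length trend removed and the replicate number as a block (0.0411), where 71 genes were called.

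Vegfa encodes the main angiogenic growth factor and was the most abundant HIF target outside glycolysis per gene length. It had 360, 230 and 334 CPM in Mn-N/C, against 400, 412 and 448 CPM in vehicle. The groups did not overlap, though Mn-N/C replicate 1 lay near the lowest vehicle value. The means were 308 ± 68.6 CPM in Mn-N/C and 420 ± 25.05 CPM in vehicle (SD, n = 3 each), a log2 fold change of -0.45 ± 0.15 (SE) with an adjusted p of 0.186 (edgeR). Without Mn-N/C replicate 2 it was -0.27. The DESeq2 call of Vegfa (adjusted p 0.0404) was lost when independent filtering was switched off, while that of Ddit4 was kept.

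Bnip3l and Bnip3 encode mitophagy receptors of the outer mitochondrial membrane. Bnip3l had 125, 97.9 and 129 CPM in Mn-N/C, against 136, 131 and 160 CPM in vehicle, with the highest Mn-N/C and the lowest vehicle value almost touching. Its log2 fold change was -0.28 ± 0.12 (SE) with an adjusted p of 0.244 (edgeR), and only -0.01 with the GC trend removed. Bnip3, added here after its values were seen, had 76.1, 25.8 and 62.2 CPM in Mn-N/C, against 66.5, 71.3 and 62.4 CPM in vehicle. Its lower Mn-N/C mean rested on replicate 2, since without that library the log2 fold change was 0.05 in place of -0.29.

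Ankrd37, an ankyrin-repeat gene known as a HIF target, had the next lowest p of this group after Ddit4, Vegfa and Bnip3l (unadjusted p 0.124, edgeR). It had 7.54, 2.84 and 4.44 CPM in Mn-N/C, against 8.66, 7.65 and 5.93 CPM in vehicle. The groups overlapped through Mn-N/C replicate 1. The log2 fold change was -0.59 ± 0.35 (SE), with an adjusted p of 0.350 (edgeR), and -0.31 without Mn-N/C replicate 2.

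**Figure D2:**
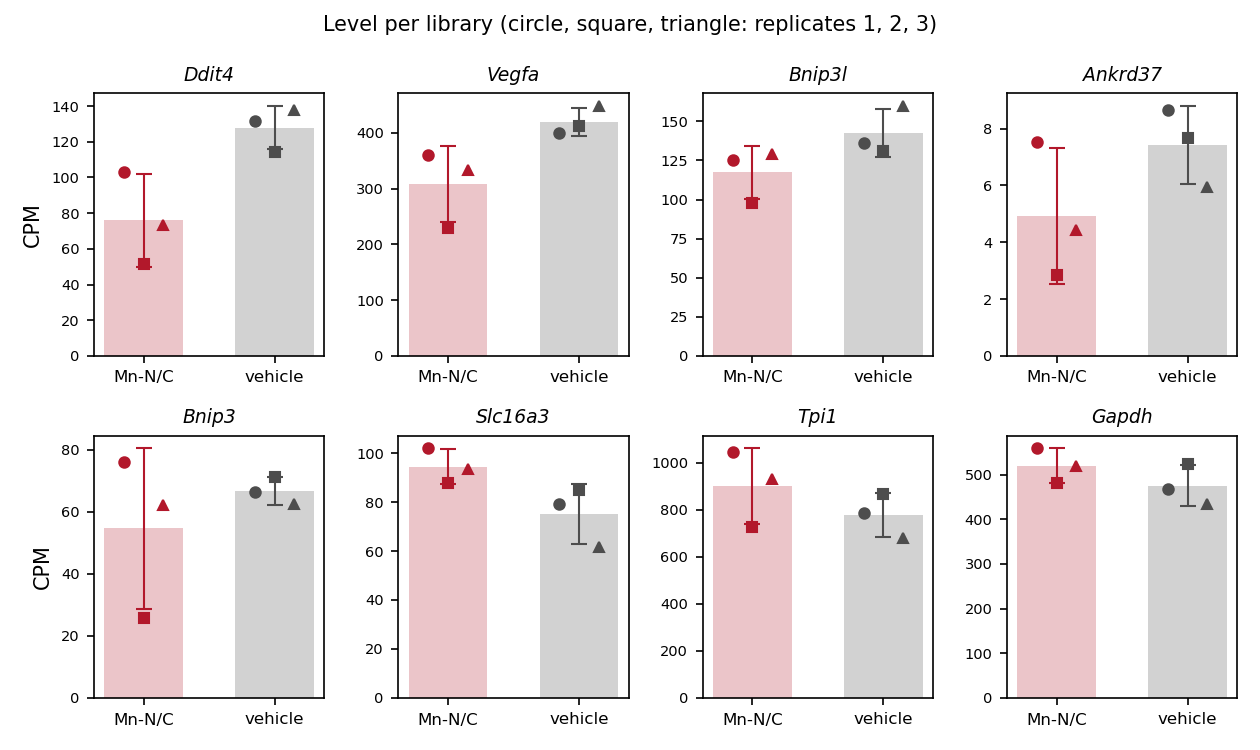
CPM per library (vertical axes, starting at 0) of 8 genes in Mn-N/C (left) and vehicle (right). Symbols are libraries, bars are means and error bars SDs over 3 libraries. Mn-N/C replicate 2, the red square, is the lowest Mn-N/C library in each panel, and the Ddit4, Vegfa, Bnip3l and Slc16a3 groups do not overlap.

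The other 9 HIF targets had log2 fold changes between -0.23 and 0.17 and none had an adjusted p under 0.448 (edgeR). P4ha1 and P4ha2, catalytic subunits of collagen prolyl 4-hydroxylase, stood at -0.23 and 0.01. Ndrg1, a stress-response gene, and Pdk1, the kinase that restrains pyruvate dehydrogenase, were at -0.19 each. Adm, the vasodilator peptide adrenomedullin, was at -0.22, on only 1.89 to 2.92 CPM in Mn-N/C and 2.26 to 3.40 CPM in vehicle.

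The carbonic anhydrases Car9 and Car12, which regulate pH at the cell surface, were scarce. Car9 ranged over 1.16 to 3.98 CPM in Mn-N/C and 2.07 to 2.88 CPM in vehicle. Car12 ranged over 0.552 to 2.15 CPM in Mn-N/C and 0.551 to 1.59 CPM in vehicle. Neither differed beyond the spread, at -0.07 ± 0.45 and 0.17 ± 0.60 (log2 fold change, SE). Pfkfb3 and Pfkfb4, which set the level of the allosteric activator of phosphofructokinase, stood at -0.14 and 0.07.

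Of the transporters, Slc16a3 was the member with the lowest p among those with a higher mean. It encodes MCT4, the lactate exporter of glycolytic cells and a HIF-1 target. Slc16a3 (ENSMUSG00000025161, at 120839306 to 120851694 on chromosome 11 in the file) had 102, 87.7 and 93.6 CPM in Mn-N/C, against 79.2, 84.8 and 61.6 CPM in vehicle. All Mn-N/C values lay above all vehicle values, with a narrow gap between Mn-N/C replicate 2 and vehicle replicate 2. The mean was 94.5 ± 7.21 CPM in Mn-N/C and 75.2 ± 12.1 CPM in vehicle (SD, n = 3 each). The log2 fold change was 0.33 ± 0.12 (SE), with an adjusted p of 0.203 (edgeR) and a range of 0.0737 to 0.471 over the alternatives. Without vehicle replicate 3 it was 0.20. With the GC trend removed, Slc16a3 kept a higher mean in Mn-N/C, but its unadjusted p no longer lay under 0.05 (edgeR).

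The glucose transporters did not follow it. Slc2a1 (GLUT1), the widely expressed HIF target, had 206, 114 and 175 CPM in Mn-N/C, against 163, 217 and 137 CPM in vehicle. Slc2a3 (GLUT3) had 1.59, 3.26 and 2.31 CPM in Mn-N/C, against 2.92, 3.49 and 1.67 CPM in vehicle. Both groups overlapped broadly, at -0.06 ± 0.23 and -0.17 ± 0.38 (log2 fold change, SE).

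The glycolytic enzymes had smaller fold changes. The 14 rows with a higher Mn-N/C mean had log2 fold changes of at most 0.21, and the lowest adjusted p was 0.312 (edgeR), for Pfkm, the muscle-type subunit of phosphofructokinase. Pfkm had 61.7, 66.2 and 60.2 CPM in Mn-N/C, against 54.7, 58.1 and 58.0 CPM in vehicle. These groups did not overlap, and the log2 fold change was 0.14 ± 0.08 (SE), or 0.06 with the GC trend removed. Pfkm differs from the other enzymes in its order, since Mn-N/C replicate 2 was the highest of all libraries in this row alone. That library also held the most skeletal muscle RNA: 10 muscle markers summed to 799 CPM there, against 14.5 and 37.9 CPM in the other Mn-N/C libraries and 20.4 to 252 CPM in vehicle. The part of muscle in the Pfkm values was not tested.

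Tpi1, which interconverts the triose phosphates, had the largest log2 fold change among the glycolytic rows. It had 1047, 727 and 929 CPM in Mn-N/C, against 786, 865 and 681 CPM in vehicle. The groups overlapped, because Mn-N/C replicate 2 lay below vehicle replicates 1 and 2. The log2 fold change was 0.21 ± 0.14 (SE), with an adjusted p of 0.413 (edgeR). It was 0.09 without Mn-N/C replicate 1, 0.13 without vehicle replicate 3 and 0.35 without Mn-N/C replicate 2.

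The enzymes downstream of it shared the order within the Mn-N/C group, with replicate 1 above replicate 3 and replicate 2 last. Gapdh had 560, 480 and 519 CPM in Mn-N/C, against 467, 524 and 434 CPM in vehicle. Pgk1, the first ATP-producing step, had 1244, 837 and 1151 CPM in Mn-N/C, against 1017, 1140 and 1019 CPM in vehicle. Pgam1, phosphoglycerate mutase, had 555, 441 and 479 CPM in Mn-N/C, against 430, 489 and 397 CPM in vehicle. In all 3 genes Mn-N/C replicate 1 was the highest library and the groups overlapped. Log2 fold changes were 0.13 ± 0.09 for Gapdh, 0.03 ± 0.14 for Pgk1 and 0.16 ± 0.11 for Pgam1 (SE), and that of Pgk1 turned to -0.01 in limma on FPKM.

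At the end of the pathway, Eno1 (enolase), Pkm (pyruvate kinase) and Ldha (lactate dehydrogenase A) stood at 0.16, 0.14 and 0.15. At its start, the hexokinases Hk1 and Hk2 stood at 0.07 and 0.08, the liver- and platelet-type phosphofructokinase subunits Pfkl and Pfkp at 0.11 and 0.03, and the main Aldoa row at 0.05. The second Aldoa row (ENSMUSG00000114515), next to the first on chromosome 7, had 3.41 to 5.89 CPM in Mn-N/C and 3.66 to 4.59 CPM in vehicle, at 0.20. The 3 rows with a lower Mn-N/C mean were Gpi1, glucose-6-phosphate isomerase, at -0.03, and the brain-type isoenzymes Aldoc and Eno2 at -0.17 and -0.04. Gapdh, Pgk1, Eno1, Pgam1, Ldha and Aldoa have near-identical copies elsewhere in the genome, and it is not stated how reads that fit several copies were counted, so these values are uncertain to that extent.

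The order of the libraries recurred from gene to gene. Mn-N/C replicate 1 was the highest of all 6 libraries in 13 of 17 glycolytic rows, and vehicle replicate 3 the lowest in 11. Mn-N/C replicate 2 was the lowest Mn-N/C library in 16 of the 17 and the lowest of all libraries in 11 of 14 HIF targets outside glycolysis. The median ratio of Mn-N/C replicate 1 to Mn-N/C replicate 2 was 1.58 over the HIF targets and 1.30 over the glycolytic rows.

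**Figure D3:**
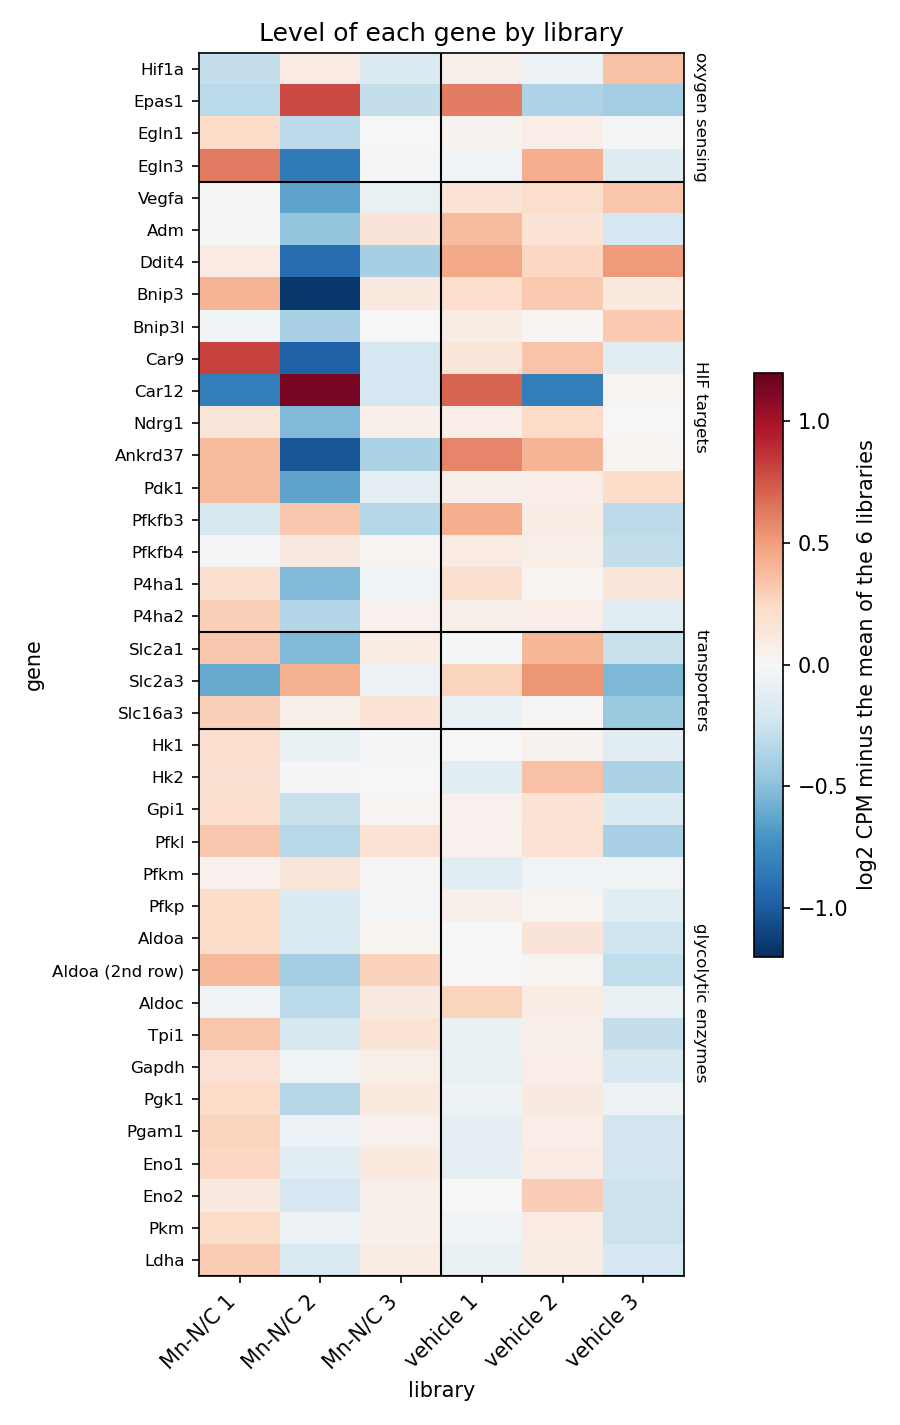
Log2 CPM of each row minus its mean over the 6 libraries (color), by library (columns, Mn-N/C left of vehicle) and role (blocks). The column of Mn-N/C replicate 2 is blue through most HIF targets, and that of vehicle replicate 3 through most glycolytic enzymes.

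The mean deviation from each gene's average over the 6 libraries, in log2 CPM, shows both groups of genes at once. Over the 14 HIF targets it was 0.12, -0.43 and -0.10 in Mn-N/C, against 0.25, 0.11 and 0.04 in vehicle. Over the 17 glycolytic rows it was 0.21, -0.17 and 0.08 in Mn-N/C, against -0.03, 0.11 and -0.21 in vehicle. Each set overlapped between groups. The glycolytic mean minus the HIF mean was 0.09, 0.26 and 0.17 in Mn-N/C, against -0.28, 0.00 and -0.25 in vehicle, so that all 3 Mn-N/C values lay above all 3 vehicle values. The difference was formed after the split by role was known to run in opposite directions and is given as a description. It carries no GC correction, and with the GC trend removed the median log2 fold changes of both sets lay closer together, at 0.04 and -0.12.

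**Figure D4:**
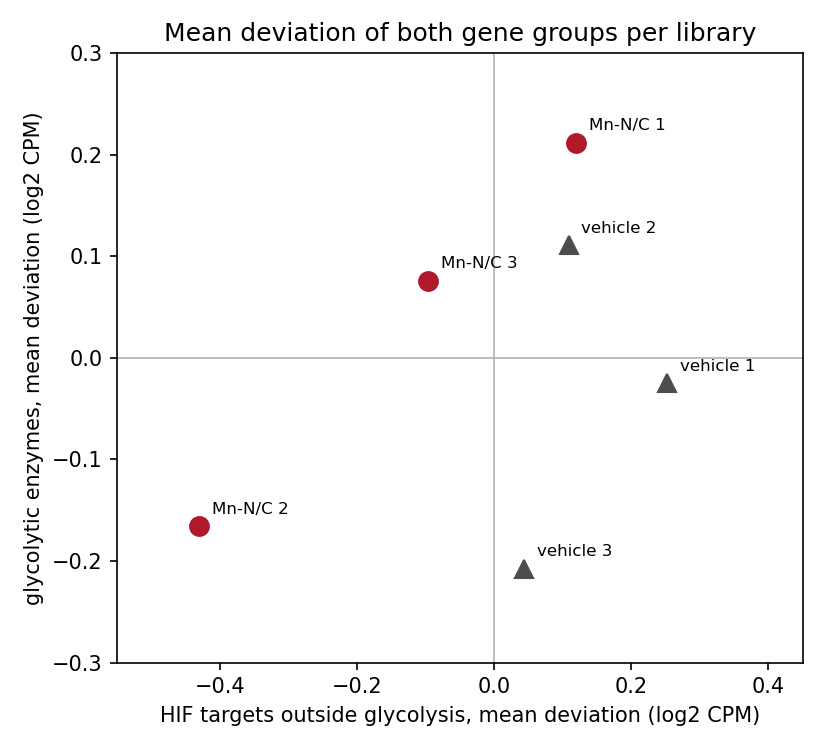
Mean deviation of the 17 glycolytic rows (vertical axis) against that of the 14 HIF targets outside glycolysis (horizontal axis), both in log2 CPM, with 1 point per library. Mn-N/C replicate 2 stands alone at the lower left, at -0.43 and -0.17.

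Marker levels of other cell types also differed between these libraries. Mn-N/C replicate 2 had, beside its muscle RNA, the highest sum of 9 fibroblast markers, at 8509 CPM. The other Mn-N/C libraries summed to 3597 and 3807 CPM, and the vehicle libraries to 3912 to 6275 CPM. Most of the 8509 CPM was Col1a1 (2819 CPM), Col3a1 (2808 CPM) and Col1a2 (2129 CPM). Those genes and Lum were highest in Mn-N/C replicate 2, but Pdgfra, Pdgfrb, Dpt and Postn were highest in vehicle replicate 1. Dcn was lowest in Mn-N/C replicate 2 and highest in vehicle replicate 3. The mean deviation over the 9 markers was 0.57 in Mn-N/C replicate 2 and 0.53 in vehicle replicate 1. Vehicle replicate 3, low in glycolytic enzymes, had the second highest muscle sum and the lowest macrophage sum, at 984 CPM, where the Mn-N/C libraries had 1133 to 1355 CPM and the other vehicle libraries 1191 and 1269 CPM. The 7 adipocyte markers all had a lower mean in Mn-N/C, where they summed to 18.3 to 25.3 CPM, against 18.2 to 66.0 CPM in vehicle. Of 10 cell cycle genes 7 had a higher and 3 a lower Mn-N/C mean. Rrm2, Mcm2, Mcm5, Ccnb1, Cdk1 and Aurkb were higher without overlap, as were 14.2% of all tested genes. Mki67 (log2 fold change -0.47), Bub1 (-0.33) and Top2a (-0.19) were lower, with overlapping groups. The sums were 2616 to 2923 CPM in Mn-N/C and 2500 to 2776 CPM in vehicle. Vehicle replicate 3 was also the library whose deviations followed GC content most strongly (rho -0.53, against 0.20 to 0.40 in Mn-N/C). The part of these differences in the hypoxia and glycolysis values was not tested.

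Per gene length, the enzymes of lower glycolysis led. In FPKM, averaged over the 6 libraries, Pgk1 (475), Pkm (472), Eno1 (459) and Ldha (415) came first. Pgk1 and Pkm were above Ldha in each of the 6 libraries, while Pgk1 was above Pkm in 5 and below it in Mn-N/C replicate 2. Tpi1 (304), Pgam1 (234), Aldoa (192) and Gapdh (120) followed. This order rests on the deposited gene lengths, such as 2244 bases for Pgk1, 4133 for Gapdh, 5001 for Pkm and 5379 for Eno1. In CPM, Eno1 (means of 2611 in Mn-N/C and 2339 in vehicle), Pkm (2477 and 2253) and Ldha (1445 and 1304) stood above Pgk1 (1077 and 1059). Vegfa at 84.9 FPKM was the first HIF target outside glycolysis, and Car12 at 0.15 FPKM was last.

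**Figure D5:**
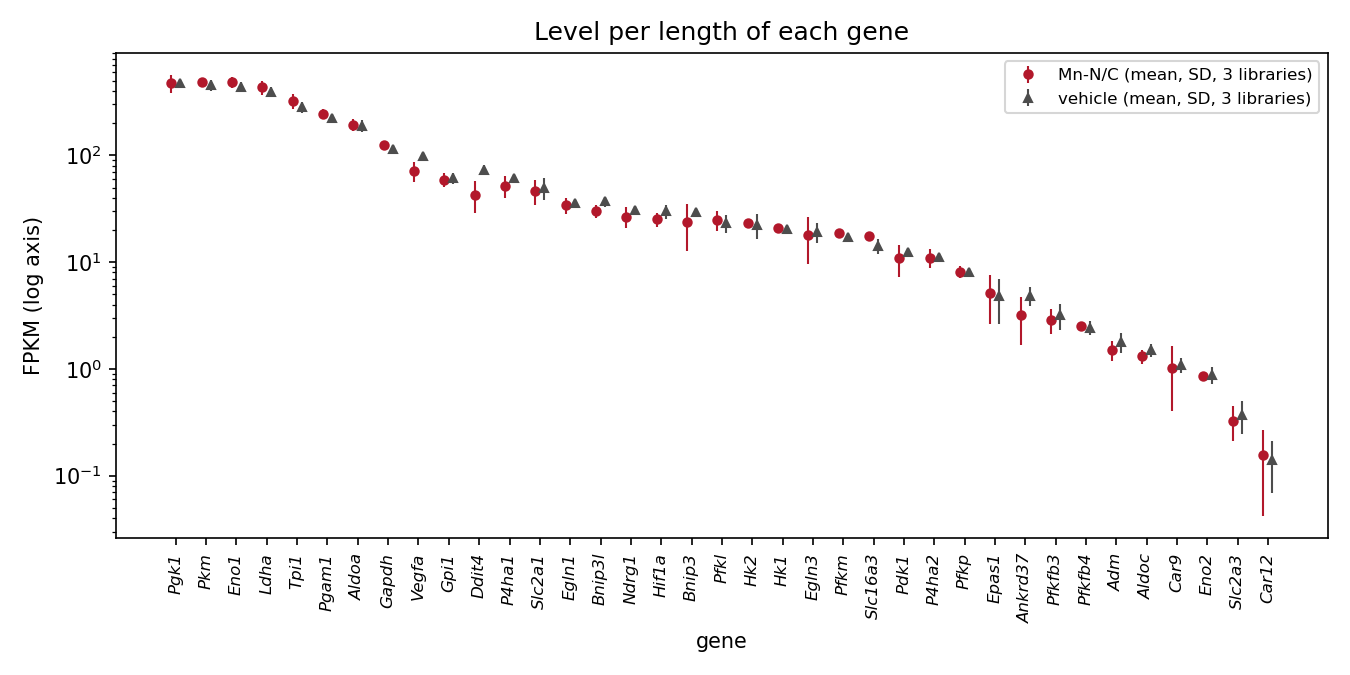
FPKM of each gene (vertical log axis, mean and SD over 3 libraries) in Mn-N/C (circles) and vehicle (triangles), ordered by the mean over all 6 libraries. Pgk1 is highest at 475 FPKM and Car12 lowest at 0.15 FPKM.

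The balance of RNA within sets of member paralogs was compared through 9 shares of summed FPKM. Two-sided exact permutation tests were used, for which 3 against 3 allows no p under 0.1. No share passed after Benjamini-Hochberg adjustment over the 9 (lowest adjusted p 0.45, exact permutation). Hk2 made up 52.7% ± 0.657 of Hk1 plus Hk2 in Mn-N/C and 51.8% ± 5.03 in vehicle (SD, n = 3 each). Pfkl made up 47.8% ± 5.77 of Pfkl, Pfkm and Pfkp together in Mn-N/C and 47.7% ± 4.74 in vehicle. Groups did not overlap for P4ha2, with 17.5% ± 0.438 of P4ha1 plus P4ha2 in Mn-N/C and 15.2% ± 1.48 in vehicle, nor for Eno2, with 0.176% ± 0.00587 of Eno1 plus Eno2 in Mn-N/C and 0.200% ± 0.0155 in vehicle (exact permutation p = 0.1 each, the smallest possible). Paralogs outside the members, such as Eno3, were left out of these sums.

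The same pathways hold further genes outside the 37 names. Of 34 tested HIF targets of 37 listed, 14 had a higher and 20 a lower Mn-N/C mean, with a median of -0.10. At the unadjusted threshold of 0.05, 2 were higher and 4 lower, beside 9.82% and 11.1% of all tested genes. Groups did not overlap for 0 with higher and 5 with lower values, beside 14.2% and 12.1% of all tested genes. Zfp36l1, an mRNA-decay factor, had 137, 129 and 132 CPM in Mn-N/C, against 173, 164 and 177 CPM in vehicle, without overlap (log2 fold change -0.37 ± 0.07, SE). Kdm3a, a histone demethylase, was at -0.40 ± 0.10 and Plod2, a collagen lysyl hydroxylase, at -0.42 ± 0.14, both without overlap. Mif, the most abundant of them per length, was at 0.30 ± 0.11 with overlapping groups. Each of these had an adjusted p of at least 0.182 (edgeR).

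Of 24 tested genes of glycolysis and pyruvate use outside the members (36 listed), 16 had a higher and 8 a lower Mn-N/C mean, with a median of 0.14. At the unadjusted threshold, 3 were higher and 0 lower, beside the same shares of all tested genes. Those 3 were Eno3, the muscle enolase, at 0.36 ± 0.09, the ADP-dependent glucokinase Adpgk at 0.25 ± 0.08, and Slc16a1 (MCT1, a lactate transporter) at 0.25 ± 0.09. Eno3 had 96.6, 79.9 and 88.6 CPM in Mn-N/C, against 67.2, 70.3 and 69.4 CPM in vehicle, without overlap. Of the 24 genes, 5 were higher and 1 lower without overlap, beside 14.2% and 12.1% of all tested genes. In the same libraries, 10 muscle markers summed to 37.9, 799 and 14.5 CPM in Mn-N/C and 20.4, 133 and 252 CPM in vehicle. The part of muscle RNA in the Eno3 values was not tested. Bsg, the chaperone of both lactate transporters, was at 0.20 ± 0.10. Among 9 tested HIF regulators of 11 listed, 2 were higher and 1 lower without overlap, beside 14.2% and 12.1% of all tested genes. Elob, a subunit of the von Hippel-Lindau ligase, was at 0.30 ± 0.09 and its scaffold Cul2 at -0.32 ± 0.15, both without overlap. Cited2, which competes for a HIF coactivator, was at -0.14 ± 0.08. None of these genes passed the adjusted threshold (lowest adjusted p 0.182, edgeR). Their fold changes carry no GC correction, and GC content was 61.1% for Elob and 40.6% for Cul2.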

How the data were processed

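RNA of 6 whole tumor pieces was sequenced, 3 per group. The deposited table holds whole-number read counts per gene, which the authors did not normalize, and FPKM values that the authors made from count, gene length (the one other column used) and library total. HISAT2 2.0 and mm10 are named in the submitters' processing notes. The counting program, the strand setting and the annotation are not stated in the sources used here. Start and end are printed as the file gives them. They equalled GENCODE M21 for 1 of the 38 rows, so the build behind them is unsettled, and promoter windows were matched by symbol only. Per-sample columns left unused numbered 0.

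Counts were fitted with edgeR 4.0.16 (R 4.3.3; filterByExpr, TMM and the quasi-likelihood test, with group as the single term), with Benjamini-Hochberg adjustment over 12800 genes. CPM are TMM-scaled, and log2 CPM used a prior count of 2. The precision rests on 14988588 to 18961134 counts per library. The fit was tested on simulated data. The alternatives were DESeq2 1.42.0, limma 3.58.1 on log2(FPKM + 1) and log2(FPKM + 0.1), other scalings, no filter, a replicate block, loess trends on length or GC content removed (span 0.5), and each library left out. DESeq2 was run with independent filtering tuned to the 0.05 threshold. Its filtering had for a time been set to the default, to come nearer to a count in an earlier account of these data, and other configurations were tried for the same reason. The 0.05 setting was then restored, and all 12 configurations run are reported.

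Members and gene lists were chosen with earlier results of these data known. Per-library values are given, in each role, for the 4 genes with the smallest p, the most abundant by FPKM and the one with the largest fold change. Of other pathway genes, up to 3 with the smallest p and the most abundant are named.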

Additional observations from a re-analysis of the deposited data

How the results depend on the processing

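Of 374 fold changes of single rows under settings other than leaving out a library, 359 kept their direction, 15 reversed and 3 were called. The reversed ones were small on the log2 scale: P4ha2 at -0.0236 and -0.0269 in limma on log2(FPKM + 1) and log2(FPKM + 0.1), -0.00554 with the replicate block and -0.0307 with the GC trend removed, Pgk1 at -0.0128 in both limma fits and -0.01996 with length trend and replicate block, Gpi1 at 0.0515 and 0.0477 and Eno2 at 0.0022 and 0.0138 with the length trend removed without and with the block, and Hif1a at 0.0564, Pfkfb4 at -0.00908, Hk1 at -0.0253 and Aldoa at -0.0345 with the GC trend removed. With the GC trend removed, 0 rows were higher at an unadjusted p under 0.05. The cause of these shifts was not tested.

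DESeq2 called 787 genes and 2 members (Ddit4 and Vegfa). Over the 12 DESeq2 configurations, 11 of them added after seeing the data, the count depended on the filtering: with independent filtering tuned to 0.05 it was 787 on the tested genes, 751 on all rows and 748 on rows with at least 10 reads, and tuned to 0.1 it was 753, 686 and 673, with 2 members called in each. Without independent filtering, with or without removal of outlying counts, it was 483, 309 and 401, with 1 member called, Ddit4.

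Whether the replicate numbers pair the samples is not stated. Correlations of deviations between libraries of the same number were -0.153, -0.011 and 0.124, which cannot settle it. With the replicate block alone 0 genes were called, and with the length trend removed as well 71 genes were called, 2 of them with an absolute log2 fold change over 1.8, 1 of them a member (Ddit4), with 4 members lower at an unadjusted p under 0.05.

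Leaving out each library in turn gave 0 to 583 called genes, 0 to 3 with an absolute log2 fold change over 1.8 (583 and 3 without vehicle replicate 2) and 0 called members. Members at an unadjusted p under 0.05 numbered 0 to 4 higher (0 without Mn-N/C replicate 1 or 3, 4 without Mn-N/C replicate 2 or vehicle replicate 2) and 2 to 5 lower (5 without Mn-N/C replicate 1). Median log2 fold changes ranged over -0.17 to -0.0153 for oxygen sensing, -0.36 to -0.05 for HIF targets outside glycolysis, -0.20 to 0.15 for transporters and 0.01 to 0.22 for glycolytic rows. Directions reversed in 38 of 228 values: P4ha2 ranged over -0.14 to 0.17, Slc2a3 -0.46 to 0.0674, Hk1 -0.023 to 0.12, Pfkl -0.0332 to 0.29, Pfkp -0.0823 to 0.12, Aldoa -0.0477 to 0.16, Pgk1 -0.0906 to 0.18, Epas1 -0.33 to 0.56, Egln1 -0.18 to 0.0855, Egln3 -0.49 to 0.23, Bnip3 -0.60 to 0.0539, Car9 -0.67 to 0.26, Car12 -0.58 to 0.63, Ndrg1 -0.31 to 0.0017, Pdk1 -0.47 to 0.0363, Slc2a1 -0.25 to 0.15, Gpi1 -0.14 to 0.0914, Eno2 -0.16 to 0.13, Pfkfb3 -0.37 to 0.0679, Pfkfb4 -0.0435 to 0.15 and Hk2 -0.0665 to 0.32.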
